A study of Rattus norvegicus with 14 samples.

Results

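The genes described here are 6 chosen from bile acid synthesis and hepatocyte transport: Cyp7a1 and Akr1d1, which encode enzymes of bile acid synthesis, and Abcb11, Abcb4, Abcc2 and Abcc6, which encode transporters of the ATP-binding cassette (ABC) family. Their probe sets were found by gene symbol in the platform annotation, which gave 7 of the 4502 probe sets, with 2 for Akr1d1 and 1 for each other gene. A probe set is a group of short probes for 1 transcript. All 6 genes were among the 1909 features tested, and no signal of theirs was missing or at the floor set on low signals. Except for the brighter Akr1d1 probe set, each carries the suffix that Affymetrix gives to probe sets whose probes can match more than 1 transcript.

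Liver RNA was measured in 6 groups on 14 arrays of 1 colour. Rats whose strain the labels call Kyoto ate chow with 1% orotic acid for 1 day, 3 days or 14 days, with 2 arrays at each time. Wistar rats gave 3 control arrays, 2 arrays after 3 days of orotic acid and 3 arrays after 14 days, and the labels give no time on standard chow for the controls. The RNA came from the left lateral lobe. Orotic acid, an intermediate of pyrimidine synthesis, gives rats a reversible fatty liver. Kyoto rats on control chow and Wistar rats after 1 day were not analysed here, so a difference between the strains on orotic acid cannot be told apart from one they have on ordinary chow. The labels do not say in so many words that each array was a separate animal, so p-values measure the spread between these samples.

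Hepatocytes make bile acids from cholesterol. The classical route begins with Cyp7a1, the cholesterol 7-alpha-hydroxylase and rate-limiting enzyme of the pathway. Akr1d1, the steroid 5-beta-reductase, later gives the steroid nucleus the bent shape of bile acids, and the side chain is then shortened in peroxisomes and joined to taurine or glycine. At the canalicular membrane, the face of the hepatocyte that lines the smallest bile channels, Abcb11 (the bile salt export pump) exports bile salts. Abcb4 (Mdr2 in rodents) moves phosphatidylcholine into bile, and Abcc2 (Mrp2) exports conjugated bilirubin and other organic anions. Abcc6 (Mrp6) is the outlier of the set: it is a liver transporter of the basolateral membrane, loss of which causes the calcification disorder pseudoxanthoma elasticum in humans.

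The level of each gene is its log2 signal after quantile normalization between arrays. The strains were compared as the mean of their differences at days 3 and 14 of feeding, called fed Kyoto and fed Wistar, over 4 and 5 arrays. Levels were compared within a probe set only, since probe sets differ in brightness for the same amount of RNA. In bulk liver, fewer cells of a type and less RNA per cell cannot be told apart. The labelled tissue was borne out by 7 measured hepatocyte genes (Alb and Ttr among them), whose summed signal lay between 107800 and 127700 on all arrays. Quantile normalization gives every array the same set of values, so the narrowness of that range partly follows from the processing. Among bile duct markers, Epcam and Sctr were at the floor on 14 of 14 arrays and Krt19 on 13 of 14. Aqp1, the remaining marker measured, was at the floor on 4 of 14 arrays and reached 7.95 in log2 signal. Of these arrays, 2 stood apart, in different ways. The array labelled Wistar control 2 correlated best with an array of the other strain, Kyoto day 3 replicate 2 (r = 0.96 across genes), though its median r of 0.948 was not low. Kyoto day 1 replicate 1 was the array least like the rest, with a median r of 0.895.

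Abcc2 was the only one of the 6 genes past the threshold in any comparison with 1 probe set per gene, and it was higher in Kyoto than in Wistar livers on orotic acid. Akr1d1 was lower in Kyoto livers by both of its probe sets, with no overlap between the strains, and the dimmer of these probe sets passed the threshold when probe sets were tested one by one. The levels of Cyp7a1, Abcb11, Abcb4 and Abcc6 overlapped between the strains. The promoters of 3 of the 6 genes, all of them transporters, could be matched in the RefSeq table of the GRCr8 rat assembly, and they are shown so that Abcc2 can be read beside 2 other members of its transporter family that were not called. Each stretch holds 250 bases before and 50 after the gene's start, on the strand of the gene. Capitals mark a GC box (GGGCGG) or a CCAAT box (CCAAT), each searched on both strands, and TATAAA was also searched.
Abcc2, chr1:252613625-252613924, plus strand: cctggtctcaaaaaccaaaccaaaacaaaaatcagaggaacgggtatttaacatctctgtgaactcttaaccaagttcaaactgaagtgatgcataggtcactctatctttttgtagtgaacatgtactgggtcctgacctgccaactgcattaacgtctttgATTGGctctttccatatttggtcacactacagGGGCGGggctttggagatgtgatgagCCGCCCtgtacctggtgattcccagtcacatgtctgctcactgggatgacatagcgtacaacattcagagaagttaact
Abcb4, chr4:26164096-26164395, minus strand: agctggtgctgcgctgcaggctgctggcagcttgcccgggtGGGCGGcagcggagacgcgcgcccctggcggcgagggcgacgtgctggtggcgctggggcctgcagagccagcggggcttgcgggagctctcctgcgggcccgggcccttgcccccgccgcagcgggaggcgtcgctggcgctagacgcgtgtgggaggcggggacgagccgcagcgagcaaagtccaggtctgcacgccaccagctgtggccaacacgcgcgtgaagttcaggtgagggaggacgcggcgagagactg
Abcc6, chr1:105637846-105638145, minus strand: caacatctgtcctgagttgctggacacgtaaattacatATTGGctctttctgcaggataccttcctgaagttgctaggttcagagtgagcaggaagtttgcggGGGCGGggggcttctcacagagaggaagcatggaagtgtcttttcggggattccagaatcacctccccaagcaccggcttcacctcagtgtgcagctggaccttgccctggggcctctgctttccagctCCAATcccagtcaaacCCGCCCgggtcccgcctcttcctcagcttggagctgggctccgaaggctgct
The Abcc2 stretch was the poorest of these in G and C, at 44.7%, against 74.3% for Abcb4 and 57% for Abcc6, where the median of all 33469 promoters in the table was 51.7%. It held 2 GC boxes, at -55 and -29 from the start, and 1 CCAAT box at -87. The Abcb4 stretch held 1 GC box at -209 and no CCAAT box. The Abcc6 stretch held 2 GC boxes, at -147 and -2, and 2 CCAAT boxes, at -212 and -18. None of these stretches held TATAAA. Over all promoters, 33.1% held a GC box, 37.5% a CCAAT box and 14.2% TATAAA, so these letters are common, and a match does not show that a factor binds there.

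Cyp7a1 (Entrez gene 25428), the rate-limiting enzyme, varied widely within groups. Its log2 signals were 9.41 and 10.82 in Kyoto livers at day 1, 11.04 and 10.46 at day 3, and 9.84 and 10.87 at day 14. They were 10.31, 10.26 and 10.10 in Wistar controls, 10.01 and 9.50 in Wistar livers at day 3, and 10.94, 10.94 and 9.81 at day 14. The controls lay close together, while arrays within every fed group differed by more than the controls did. Replicate SDs of fed groups ran from 0.36 in Wistar livers at day 3 to 0.99 in Kyoto livers at day 1, against 0.11 in the controls. In order of group means, the highest was Kyoto day 3 (10.75 ± 0.41) and the lowest Wistar day 3 (9.76 ± 0.36; SD over 2 arrays), and no neighbours in that order were apart. On orotic acid, Kyoto livers averaged 10.55 and Wistar livers 10.16 over days 3 and 14 (4 and 5 arrays). The difference of 0.39 ± 0.33 (SE) had an interval from -0.32 to 1.11 and an adjusted p of 0.669 (limma). It was 0.14 without Kyoto day 14 replicate 2, 0.65 without Kyoto day 14 replicate 1 and 0.14 with lot batch as a block, none of them called. The lot batch block sets arrays with a lot batch label against arrays without one. By day, it was 0.99 ± 0.49 at day 3 and -0.20 ± 0.45 at day 14. The change of that difference between the days, -1.20 ± 0.66, had an adjusted p of 0.856.

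Akr1d1 (Entrez gene 192242), the 5-beta-reductase, separated the strains on every array. Its brighter probe set had log2 signals of 9.90 and 10.97 in Kyoto livers at day 1, 10.73 and 10.78 at day 3, and 10.98 and 11.07 at day 14. The values were 11.58, 11.41 and 12.09 in Wistar controls, 11.60 and 11.75 in Wistar livers at day 3, and 11.55, 11.84 and 11.83 at day 14. All 6 Kyoto arrays lay below all 8 Wistar arrays, and the closest pair was Kyoto day 14 replicate 2 and Wistar control 2. Such a separation, with Kyoto lower, was seen for 13 of the 1909 features (0.681%), and over the arrays of days 3 and 14 alone for 3.77%. The group means were 10.43 ± 0.75, 10.76 ± 0.04 and 11.02 ± 0.07 in Kyoto livers at days 1, 3 and 14, and 11.69 ± 0.36, 11.68 ± 0.10 and 11.74 ± 0.16 in Wistar controls, day 3 and day 14 (SD, n = 2 or 3).

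The dimmer Akr1d1 probe set also separated the strains. It read 8.61 and 8.86 in Kyoto livers at day 1, 8.09 and 8.55 at day 3, and 8.98 and 8.78 at day 14. In Wistar livers it read 9.17, 9.25 and 10.45 in controls, 10.52 and 10.43 at day 3, and 9.74, 10.00 and 11.52 at day 14. Again each Kyoto array was below each Wistar array. How many of all probe sets, taken one by one, show such a separation was not counted. Unlike the brighter probe set, this one spread widely among Wistar arrays, with Wistar day 14 replicate 3 far above the rest. The 2 probe sets correlated at r = 0.79 over the 14 arrays.

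The brighter probe set represented Akr1d1 in the fit, and its strain difference missed the threshold. On orotic acid it averaged 10.89 in Kyoto and 11.71 in Wistar livers, a difference of -0.82 ± 0.22 (SE, interval -1.28 to -0.35), or 1.76-fold lower in Kyoto livers, with an adjusted p of 0.059 (limma). The difference was -0.92 ± 0.32 at day 3 and -0.72 ± 0.29 at day 14. Where every probe set was tested on its own, 70 of 2466 were called (2.84%), and the dimmer Akr1d1 probe set was among them. It was 3.59-fold lower in Kyoto livers (-1.85 ± 0.35, adjusted p = 0.0155), while the brighter one again missed (adjusted p = 0.0666). With lot batch as a block the dimmer probe set differed by -1.42 (adjusted p = 0.0466). Leaving out each array of days 3 and 14 in turn kept the difference between -2.02 and -1.57, and the call held in 3 of the 9 refits, with adjusted p-values up to 0.0791.

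**Figure D1:**
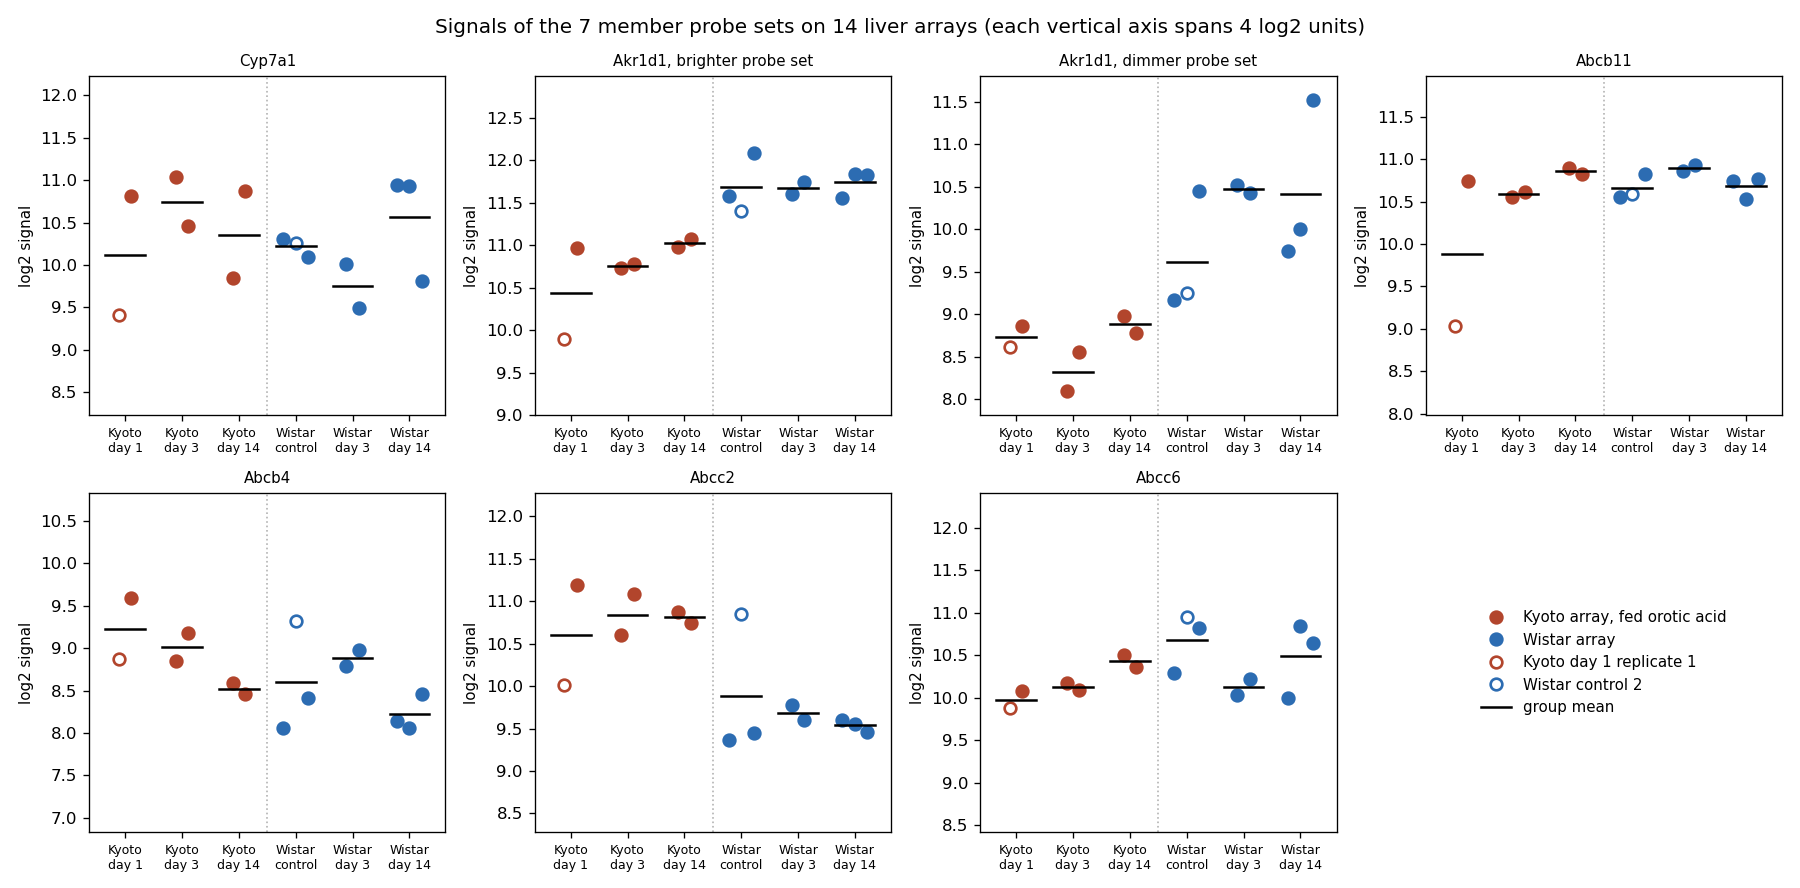
Log2 signal of the 7 probe sets on each of the 14 arrays, by group, with a bar at each group mean; each vertical axis spans the same range of log2 units, and open points are Kyoto day 1 replicate 1 and Wistar control 2. Both Akr1d1 probe sets have every Kyoto point below every Wistar point, while Abcc2 is high on Kyoto arrays and on Wistar control 2 (10.85).

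Abcb11 (Entrez gene 83569), the bile salt export pump, was the steadiest of the transporters once 1 array was set aside. Its signals were 9.03 and 10.75 in Kyoto livers at day 1, 10.55 and 10.62 at day 3, and 10.89 and 10.82 at day 14. In Wistar livers they were 10.56, 10.58 and 10.83 in controls, 10.86 and 10.93 at day 3, and 10.74, 10.53 and 10.77 at day 14. Kyoto day 1 replicate 1 was far below all others, which lay between 10.53 and 10.93. The strain difference on orotic acid was -0.07 ± 0.27, with an interval from -0.64 to 0.51 and an adjusted p of 0.941 (limma).

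Abcb4 (Entrez gene 24891), the phospholipid translocase, had its lowest group mean at day 14 in each strain. Its signals were 8.87 and 9.59 in Kyoto livers at day 1, 8.85 and 9.17 at day 3, and 8.59 and 8.46 at day 14. In Wistar livers they were 8.06, 9.32 and 8.41 in controls, 8.79 and 8.98 at day 3, and 8.15, 8.06 and 8.46 at day 14. In each strain both day 3 arrays were above all day 14 arrays, but neighbouring groups in the order of means overlapped throughout. Day 14 minus day 3 was -0.49 ± 0.37 in Kyoto and -0.66 ± 0.34 in Wistar livers, with adjusted p-values of 0.979 and 0.993. Groups that did not overlap were common in these small comparisons, at 41.8% of features for the Kyoto pair of days and 20.2% for the Wistar pair. The strain difference on orotic acid was 0.21 ± 0.25 (interval -0.33 to 0.75, adjusted p = 0.755).

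Abcc2 (Entrez gene 25303), the canalicular exporter of conjugated organic anions, had log2 signals of 10.02 and 11.19 in Kyoto livers at day 1, 10.60 and 11.08 at day 3, and 10.87 and 10.75 at day 14. In Wistar livers it had 9.37, 10.85 and 9.44 in controls, 9.77 and 9.60 at day 3, and 9.61, 9.55 and 9.47 at day 14. All 6 Kyoto arrays were above all Wistar arrays but 1, Wistar control 2, which lay among them. On the linear scale of the deposited table, the 4 Kyoto arrays of days 3 and 14 had signals of 1655, 2024, 1918 and 1657, and the 5 Wistar arrays of those days 848, 728, 845, 739 and 708. These arrays did not overlap between the strains, which with Kyoto higher held for 97 of the 1909 features (5.08%).

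The Abcc2 means over days 3 and 14 were 10.82 in Kyoto and 9.61 in Wistar livers. The difference of 1.21 ± 0.31 (SE, interval 0.55 to 1.87) made the signal 2.32-fold higher in Kyoto livers, with an adjusted p of 0.0466 (limma). In this comparison 62 of 1909 features were called (3.25%), of which 24 were higher (1.26%) and 38 lower (1.99%) in Kyoto livers. Of the 6 genes 1 was called, and at an unadjusted p under 0.05 it was 2 of 6, Abcc2 and Akr1d1, beside 14.4% of all features. The Abcc2 difference was similar at both times, 1.15 ± 0.45 or 2.22-fold at day 3 and 1.27 ± 0.41 or 2.41-fold at day 14, and its change between them was 0.12 ± 0.61 (adjusted p = 0.982).

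The size of the Abcc2 difference was steadier than its call. Leaving out each of the 9 arrays of days 3 and 14 in turn gave differences from 1.09 to 1.33, but adjusted p-values from 0.0678 to 0.164, so none of the 9 refits kept the call. With the 2 arrays that stood apart left out of the fit, the difference could not change, since neither is an array of days 3 or 14. That refit was chosen after seeing the data, and it alters only the estimate of the spread. Lot batch was given as 1 for 11 arrays and not given for 3 Wistar arrays, 2 of them of days 3 and 14. Wistar day 14 replicate 3 and Wistar control 3, both without a lot batch, correlated best with each other (r = 0.97). Lot batch as a block left Abcc2 at 1.07 (adjusted p = 0.169) and Akr1d1 at -0.69 (adjusted p = 0.205). That block treats the 3 unlabelled arrays as 1 batch, though their lots are not known, and all 3 are Wistar arrays. Among the arrays of days 3 and 14, those labelled lot batch 1 were 4 from Kyoto and 3 from Wistar rats. Within them the difference was 1.15 for Abcc2 and -0.76 for Akr1d1. That neither gene overlapped between the strains there follows from the full set of arrays of those days, and adds nothing to it.

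**Figure D2:**
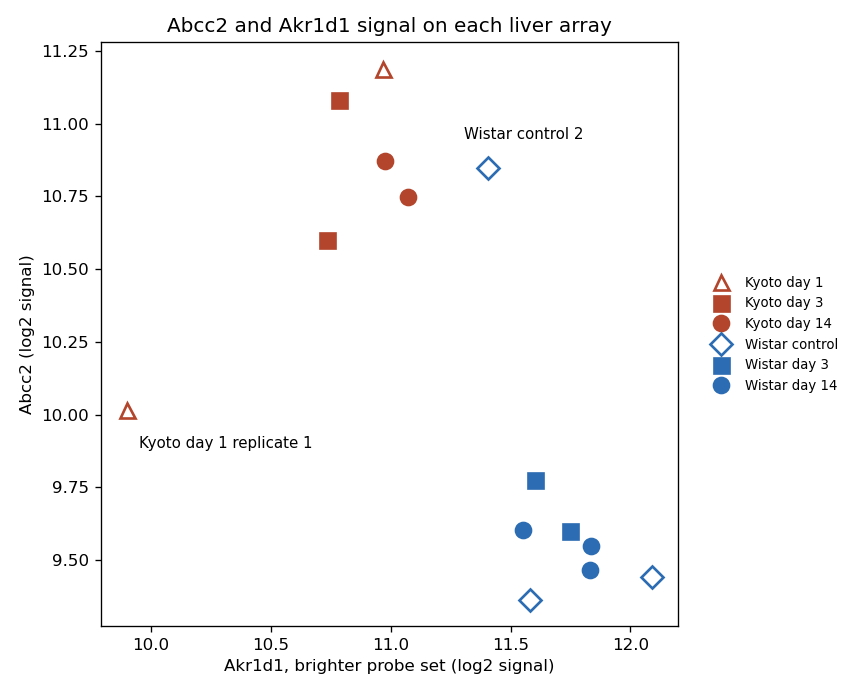
Abcc2 log2 signal against that of the brighter Akr1d1 probe set, 1 point per array, by strain and feeding. Fed Kyoto arrays of days 3 and 14 lie at Abcc2 from 10.60 to 11.08 and fed Wistar arrays from 9.47 to 9.77, and Wistar control 2 has a Kyoto-like Abcc2 signal (10.85) with the lowest Akr1d1 signal of the Wistar arrays (11.41).

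Abcc6 (Entrez gene 81642), the basolateral transporter, had the smallest span of group means of the 6 genes with all arrays kept. Its signals were 9.87 and 10.08 in Kyoto livers at day 1, 10.17 and 10.09 at day 3, and 10.50 and 10.37 at day 14. In Wistar livers they were 10.29, 10.95 and 10.82 in controls, 10.03 and 10.22 at day 3, and 10.00, 10.84 and 10.65 at day 14. Wistar controls were highest as a group and Kyoto livers at day 1 lowest, with both Wistar day 3 arrays below all controls, where 34.2% of features had no overlap between those groups. The strain difference on orotic acid was -0.03 ± 0.21 (interval -0.47 to 0.42, adjusted p = 0.965). Group means spanned 0.71 for Abcc6, against 1.31 for Akr1d1, 1.30 for Abcc2 and 0.99 to 1.01 for the other members, where the median over all tested features was 0.63. The Abcb11 span rests on Kyoto day 1 replicate 1, at 9.03 beside 10.53 to 10.93 on the other arrays. That array was also the lowest for the brighter Akr1d1 probe set, at 9.90, and spans without it were not computed.

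Feeding and time moved no member past the threshold. In Wistar livers, 0 of 1909 features were called at day 14 or at day 3 against control, or at day 14 against day 3 (limma, 0% in each). At an unadjusted p under 0.05 these comparisons held 5.19%, 10.5% and 4.45% of features and none of the 6 genes. The nearest was Abcc6 at day 3, with 10.12 ± 0.13 against 10.69 ± 0.35 in controls (SD, n = 2 and 3), a difference of -0.56 ± 0.28 with an adjusted p of 0.515. Both comparisons with controls use the same 3 control arrays. For Abcc2 the differences from control were -0.20 ± 0.41 at day 3 and -0.34 ± 0.37 at day 14, and without Wistar control 2 they were 0.28 and 0.14. Akr1d1 differed from control by -0.02 ± 0.29 at day 3 and 0.05 ± 0.26 at day 14, and by 0.85 ± 0.47 and 0.80 ± 0.42 on its dimmer probe set (adjusted p = 0.571 and 0.994). Cyp7a1 stood at -0.47 ± 0.45 against control at day 3 and 0.34 ± 0.40 at day 14, and its day 14 minus day 3 difference was 0.80 ± 0.45 (adjusted p = 0.993).

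In Kyoto livers the comparison of day 3 with day 1 called 0 of 1909 features (5.81% at an unadjusted p under 0.05), day 14 with day 1 called 1 (0.0524%), and day 14 with day 3 called 0 (4.61% unadjusted). No member was among them. The largest member value was for Abcb11, whose mean was 10.86 ± 0.05 at day 14, against 9.89 ± 1.21 at day 1 (SD over 2 arrays), a difference of 0.97 ± 0.40 with an unadjusted p of 0.0278, where 10.1% of features were under 0.05, and an adjusted p of 0.450. It rests on Kyoto day 1 replicate 1: without that array the difference was 0.11, and without the other day 1 array it was 1.83 (adjusted p = 0.00135). Abcb4 stood at -0.71 ± 0.37 for day 14 minus day 1 (adjusted p = 0.531), and at -1.07 without Kyoto day 1 replicate 1 or -0.34 with replicate 2 of that group left out. The strain by day interaction called 0 of 1909 features (5.13% unadjusted), and no member had an unadjusted p under 0.05.

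**Figure D3:**
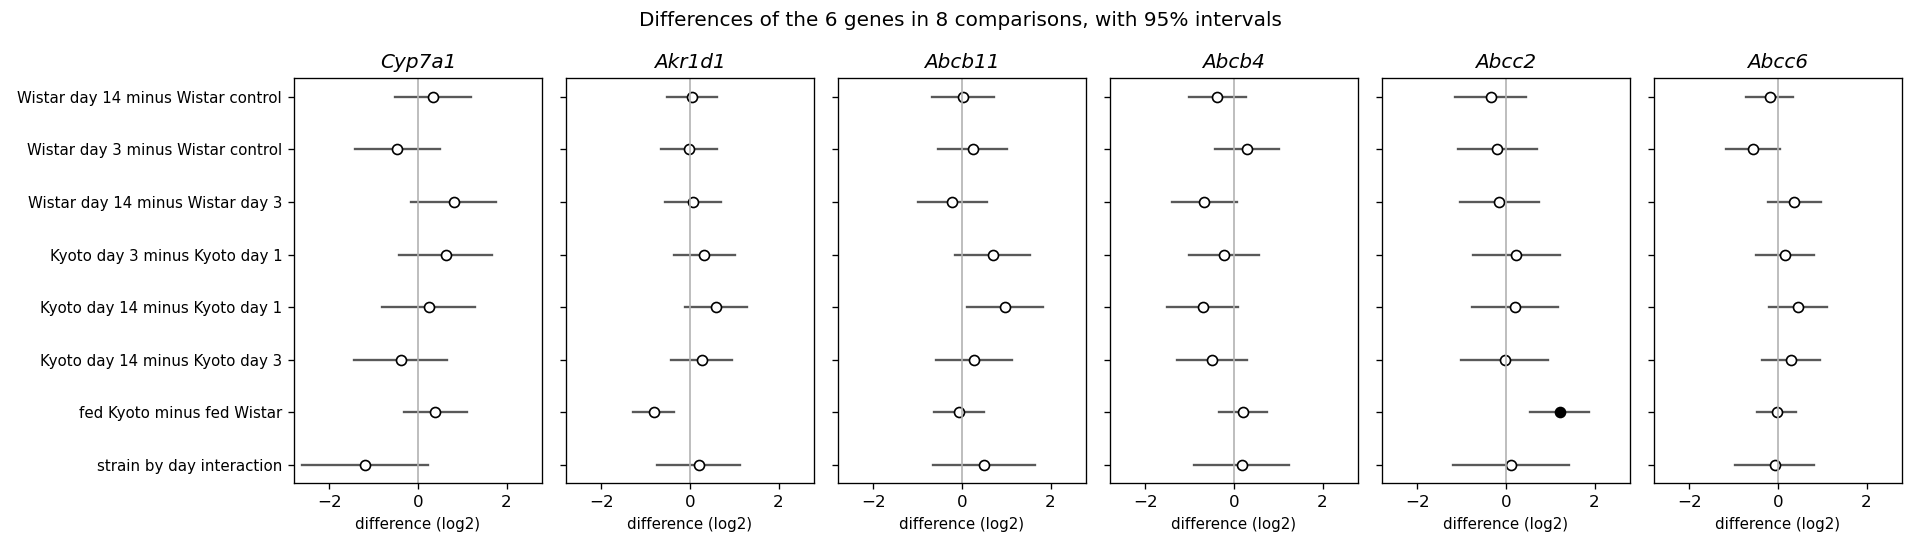
Log2 differences of the 6 genes (Akr1d1 by its brighter probe set) in the 8 comparisons, with 95% intervals; filled points have an adjusted p under 0.05. The single filled point is Abcc2 in fed Kyoto minus fed Wistar, and the interval of Akr1d1 in that comparison (-1.28 to -0.35) also lies off 0.

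Other enzymes of the pathway were mixed between the strains. Of 19 genes listed for bile acid synthesis and conjugation, Cyp7a1 and Akr1d1 included, 12 were tested. Of these, 1 was called higher in Kyoto livers and none lower, beside 1.26% and 1.99% of all tested features. On the lower side lay 8 of 12, with a median difference of -0.15 beside 0.03 for all features. The gene called was Acox2, the peroxisomal oxidase that shortens the side chain of bile acid precursors. Acox2 had 12.16 and 11.84 in Kyoto livers at day 3 and 12.50 and 12.18 at day 14, against 10.69 and 10.69 in Wistar livers at day 3 and 10.84, 11.13 and 10.77 at day 14. Fed Kyoto arrays were all above fed Wistar arrays, as they were for 5.08% of tested features. Wistar control 2 was high too, at 12.37 beside 10.41 and 11.12 in the other controls. The Acox2 difference was 1.37 ± 0.30, or 2.58-fold, with an adjusted p of 0.0253 (limma). It was 0.0955 with lot batch as a block and ran from 0.0334 to 0.117 as arrays of days 3 and 14 were left out in turn. Baat, which joins bile acids to taurine or glycine, averaged 11.13 in Kyoto and 11.87 in Wistar livers, a difference of -0.73 ± 0.20 with an adjusted p of 0.0605. Cyp27a1, which oxidises the side chain, differed by -0.24 ± 0.17, and Hsd3b7, which acts on the steroid nucleus after Cyp7a1, by -0.31 ± 0.17. Scp2, the peroxisomal thiolase that cleaves the side chain, had its smallest p between days in Kyoto livers, at 0.79 ± 0.35 for day 14 minus day 1 (adjusted p = 0.455). Without Kyoto day 1 replicate 1 that Scp2 difference was 0.26, and without Kyoto day 1 replicate 2 it was 1.33.

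Genes of bile acid uptake showed no strain call, with 5 of 14 listed genes tested and 4 of the 5 on the higher side (median 0.06). Slc10a1, the main sodium-dependent bile acid carrier of the sinusoidal membrane, averaged 11.77 in Kyoto and 11.70 in Wistar livers (0.06 ± 0.22). Slco1a4, an organic anion transporter, had 11.87 and 11.83 in Kyoto livers at day 14, against 9.06 and 11.03 at day 1, so here too Kyoto day 1 replicate 1 was low. Its day 14 minus day 1 difference of 1.80 ± 0.45 had an adjusted p of 0.152, and without that array it was 0.81. Slco1a1 stood at -0.87 ± 0.37 for day 14 minus day 3 in Wistar livers (adjusted p = 0.993). Ephx1, microsomal epoxide hydrolase, stood at 0.67 ± 0.32 for day 14 minus day 1 in Kyoto livers (adjusted p = 0.494), and at 0.075 without Kyoto day 1 replicate 1.

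Of 36 other ABC transporters and partners listed, 5 were tested and none was called, with 2 higher and 3 lower in fed Kyoto livers (median -0.15). Abcc3, the basolateral relative of Abcc2, was at the floor on 14 of 14 arrays. The smallest p-values belonged to Tap1, a peptide transporter (-0.62 ± 0.26, Wistar day 3 minus control, adjusted p = 0.415), and Abcd3, a peroxisomal transporter of bile acid precursors (0.64 ± 0.38, same comparison, adjusted p = 0.597). Abcc9 followed, with 0.83 ± 0.52 in the strain by day interaction (adjusted p = 0.877). Among 31 listed nuclear receptors and other regulators, 14 were tested, none was called, and 8 were on the higher side in fed Kyoto livers (median 0.03). Nr1h4, the bile acid receptor FXR, differed by 0.20 ± 0.20. Nr0b2, the repressor SHP that FXR induces, differed by -0.24 ± 0.44, and Hnf4a by -0.32 ± 0.28. Interactions of 2.63 ± 0.68 for Onecut1 and 2.38 ± 0.63 for Jun, both transcription factors, had an adjusted p of 0.817, and Foxa2 stood at 1.49 ± 0.47 for day 14 minus day 1 in Kyoto livers (adjusted p = 0.269).

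**Figure D4:**
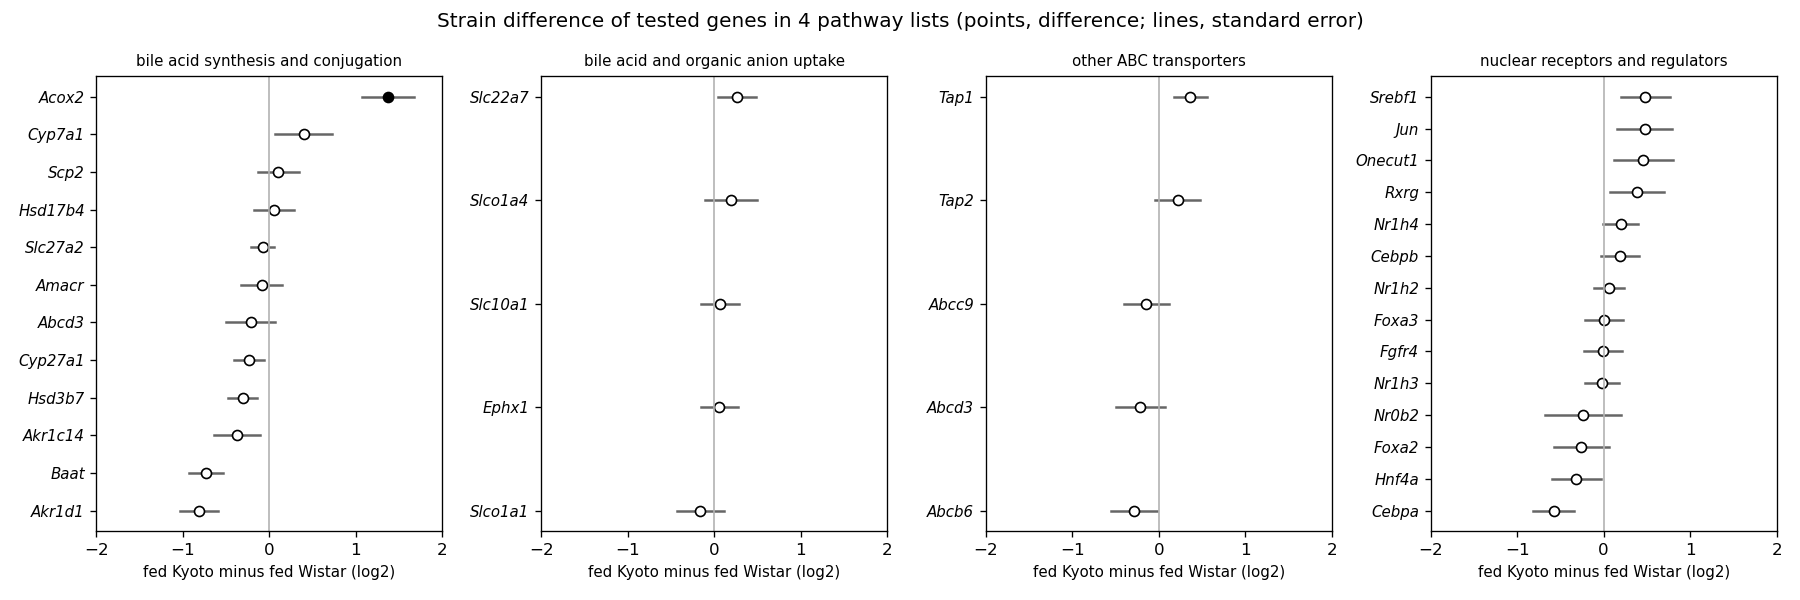
Fed Kyoto minus fed Wistar log2 difference, with its SE, for each tested gene of the synthesis, uptake, other ABC transporter and regulator lists; filled points have an adjusted p under 0.05. Acox2 (1.37) is the only filled gene of these lists, and Akr1d1 (-0.82) and Baat (-0.73) are the lowest points.

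Among markers of other liver cells, 1 gene was called between the strains, where 3.25% of all tested features were called. The Kupffer cell and macrophage list had a median strain difference of 0.57, beside 0.03 for all features. Of 5 tested Kupffer cell and macrophage genes, 4 were higher in fed Kyoto livers and 1, Clec4f, was called (10.40 in Kyoto and 9.58 in Wistar livers, 0.82 ± 0.20, adjusted p = 0.0418, or 0.0494 to 0.185 with an array of days 3 and 14 left out and 0.0955 with lot batch as a block). The summed signal of these 5 genes was 6141 to 6419 in Kyoto livers at day 3 and 5215 to 5662 at day 14, against 3890 to 4456 and 3716 to 5197 in Wistar livers on those days. In Wistar controls it was 4993 to 5982, and in Kyoto livers at day 1 it was 4772 to 5900, so these 2 groups overlapped. Clec4f itself was 9.72, 10.67 and 10.23 in Wistar controls. C1qb stood at 0.59 ± 0.18 (adjusted p = 0.0913), its dimmer probe set at 1.02 where every probe set was tested (adjusted p = 0.0237), and Lyz2 at 0.57 ± 0.23 (adjusted p = 0.263). The endothelial gene Kdr stood at 0.64 ± 0.20 (adjusted p = 0.108), and none of 6 tested stellate cell and fibroblast genes was called. Of these, Igfbp3 (-1.07 ± 0.32), Bgn (-0.92 ± 0.28; both day 14 minus day 1, adjusted p = 0.247) and Sparc (-0.97 ± 0.29, day 3 minus day 1, adjusted p = 0.783) had their smallest p-values between days in Kyoto livers. The 7 hepatocyte genes summed to between 111000 and 125400 in Kyoto and between 107800 and 115400 in Wistar livers on orotic acid for 3 or 14 days, with 6 of 7 on the higher side and none called. Their smallest p-values were for Apoa1 (-1.24 ± 0.34, Kyoto day 14 minus day 3, adjusted p = 0.689), Cps1 (0.64 ± 0.20, Kyoto day 14 minus day 1, adjusted p = 0.266) and Ttr (-0.23 ± 0.12, Wistar day 3 minus control, adjusted p = 0.544). The part of these cells in the Abcc2 and Akr1d1 differences was not tested. Bile duct markers, whose cells also line bile channels, were at or near the floor except for Aqp1. Summed over 4 genes, Aqp1 included, they gave 474.3 to 592.7 in those Kyoto livers and 460.2 to 473.1 in those Wistar livers. A sum of 460.2 has all 4 at the floor.

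Likeness to each member was measured as the highest Pearson r of log2 signals over the 14 arrays, among 1501 named genes. All points share the same arrays and groups, so these values are a description. Abcc2 was most like Akr1c13, an aldo-keto reductase (r = 0.93), and Cdh17, a cadherin that was at the floor on 7 arrays (r = 0.93). With group means removed their r was 0.91 and 0.94. Within groups, Abcc2 spread most in Wistar controls and in Kyoto livers at day 1, the groups that hold the 2 arrays that stood apart. Wistar control 2 was high for Abcc2 (10.85), Akr1c13 (10.87) and Cdh17 (8.16), and Cdh17 was at the floor on every other Wistar array. An r with group means removed was not computed without these arrays. Akr1d1 was most like Cyp2a2, a cytochrome P450 gene (r = 0.96), and Crot, the peroxisomal carnitine octanoyltransferase (r = 0.95). Cyp7a1 was most like Apmap (0.82) and Dtd1 (0.78). Abcb4 was most like Col3a1, a collagen gene (0.82), and Zfp697 (0.78), which was at the floor on 4 arrays. Abcc6 was most like Atrn (0.82) and Lamp1 (0.80). For Abcb11 the nearest genes were Ugt2b15 and Cox7b, both at 0.94, but without Kyoto day 1 replicate 1 their r was 0.32 and 0.24. Among the members themselves, Abcc2 and Abcb4 had the highest r (0.71) and Abcc2 and Akr1d1 the lowest (-0.60, or -0.88 without Kyoto day 1 replicate 1).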

How the data were processed

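The values the authors deposited are linear intensity signals of probe sets. The submitters' processing notes name MAS5 but no version, scaling target or filter. The 24 control probe sets and 375 rows without a value on at least 1 array were left out; none of these was a member. A shared median of deposited signals on 11 arrays shows scaling before deposit. Over complete rows, array medians ran from 269.5 to 285.7, and the number of arrays limits the precision.

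Signals were put on the log2 scale, quantile normalized with limma 3.58.1 in R 4.3.3, and floored at the 25th percentile, 115.1 (6.85 in log2). A gene was represented by its probe set with the highest mean, and the upper 60% of 3181 features by mean, 1909, were tested. All 14 arrays were fitted together in limma, with 6 group means, an intensity trend and 8 residual degrees of freedom. Each of 8 comparisons had a Benjamini-Hochberg adjusted p threshold of 0.05 over all tested features. Values after ± are SEs of differences or SDs of levels, intervals are 95%, and a fold is 2 raised to the log2 difference. The model was tested on simulated data.

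Groups came from the source labels, and replicate numbers only name arrays in accession order. The members and gene lists were chosen with earlier results of these data known. From each list, genes past the threshold were named, and then those with the smallest p until 3 were named. For each member the 2 likest genes were named. Other genes named (Slc10a1, Cyp27a1, Hsd3b7, Nr1h4, Nr0b2, Hnf4a, Abcc3 and the bile duct markers) were chosen for their role after values were seen. Promoter sequences are from RefSeq (GRCr8).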

Additional observations from a re-analysis of the deposited data

How the results depend on the processing

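No paired analysis was possible because the labels carry no replicate numbers that groups share. Abcc2 and Akr1d1 kept the direction of their strain difference under every alternative run, while their calls depended on the fit. The adjusted p of Abcc2 was 0.0354 on signals as deposited, 0.0508 without a floor, 0.155 without the filter on low signals, 0.0554 with every probe set tested, 0.169 with lot batch as a block and 0.00165 in a fit restricted to the 4 groups compared. Those of Akr1d1 by its brighter probe set were 0.0609 as deposited, 0.140 without the filter and 0.0068 with only the groups compared. The cause was not tested.

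Counts of called features moved as follows. Without the filter they were 2 for Kyoto day 3 minus day 1, 3 for day 14 minus day 1, 1 for day 14 minus day 3 and 1 for the strains. With every probe set tested they were 1 for Wistar day 3 minus control and 4 for Kyoto day 14 minus day 1. With only the groups compared they were 5 for Wistar day 3 minus control, 0 for Kyoto day 14 minus day 1 and 103 for the strains. The strain count was 21 with lot batch as a block and 120 with both arrays that stood apart left out, an alternative chosen after seeing the data, as were those for list genes and for the dimmer Akr1d1 probe set. Leaving out 1 array in turn gave 13 (without Kyoto day 14 replicate 1) to 57 for the strains. It gave 0 to 7 for Wistar day 14 minus control (7 without Wistar day 14 replicate 3), 0 to 73 for Kyoto day 3 minus day 1 and 0 to 162 for day 14 minus day 1 (both highest without Kyoto day 1 replicate 2). The other comparisons gave 0 throughout.

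Of 845 recomputed values of single genes, 752 kept direction and side of the threshold, 33 lost a call, 16 gained one and 44 reversed; no reversed value was called. On signals as deposited, Akr1d1 and Abcb11 in Wistar day 14 minus control became -0.026 and -0.019, Abcb11 at day 3 minus control -0.013, Abcc6 between the strains 0.0008 and the Akr1d1 interaction -0.054. The dimmer Akr1d1 probe set gave 0.85 for Wistar day 3 minus control, -0.051 for Wistar day 14 minus day 3 and -0.41 for Kyoto day 3 minus day 1, and the second Cps1 probe set gave -0.12 for Kyoto day 14 minus day 1. With lot batch as a block, Abcb11 and Abcc6 between the strains became 0.0021 and 0.057.

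Leaving out 1 array turned these signs. In Kyoto day 3 minus day 1 the ranges were -0.068 to 1.33 for Cyp7a1, -0.21 to 0.86 for Akr1d1, -0.16 to 1.56 for Abcb11, -0.58 to 0.14 for Abcb4 and -0.35 to 0.82 for Abcc2, with both ends from leaving out 1 or the other day 1 array. In Kyoto day 14 minus day 1 they were -0.46 to 0.94 for Cyp7a1 and -0.38 to 0.79 for Abcc2, likewise. In Kyoto day 14 minus day 3 they were -0.91 to 0.12 for Cyp7a1 and -0.27 to 0.21 for Abcc2. In Wistar day 14 minus control they were -0.10 to 0.25 for Akr1d1, -0.027 to 0.11 for Abcb11, -0.60 to 0.14 for Abcc2 and -0.39 to 0.058 for Abcc6. In Wistar day 3 minus control they were -0.16 to 0.18 for Akr1d1 and -0.46 to 0.28 for Abcc2, and in Wistar day 14 minus day 3 -0.0089 to 0.16 for Akr1d1. Abcc6 between the strains ran from -0.15 to 0.057, and the interactions from -0.12 to 0.36 for Abcc2 and -0.32 to 0.10 for Abcc6.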
